A study of Mus musculus with 4 samples.

Results

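The genes described here are 10 heat shock chaperones and co-chaperones measured in mouse heart, namely *Hspa1a*, *Hspa1b*, *Hspa8*, *Hsph1*, *Hsp90aa1*, *Hsp90ab1*, *Dnajb1*, *Bag3*, *Hspb1* and *Hspe1*. They were chosen by name. Every probe whose gene name in the array files was 1 of these 10 was taken, which gave 19 of the 56605 probes and 10 of the 37008 gene names on the array. Of the 19 probes, 17 carried a P flag (present, with a signal well above background) on all 4 arrays, and each gene had at least 1 of them. The remaining 2 probes, 1 of *Hsph1* and 1 of *Hsp90aa1*, had no P flag on any array and enter no result. Most of these proteins work in the cytosol and nucleus, whereas the product of *Hspe1* is a mitochondrial protein, so the set is called the heat shock genes below.

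The study asked which genes change in the heart after high-dose cyclophosphamide (CY), an alkylating anticancer drug. All mice were female *C57BL/6J*, aged 6 weeks in the labels and younger in the methods, and all were injected intraperitoneally once daily on 2 days. The groups were CY at 400 mg/kg, acrolein (a reactive aldehyde that forms when CY is metabolised) at 5 mg/kg, CY at 400 mg/kg after N-acetylcysteine (NAC, a thiol antioxidant) at 200 mg/kg (NAC + CY), and normal saline (NS, the control). Hearts were taken 3 h after the last dose according to the labels and methods, although some sentences of the study's results give a later time for CY and acrolein. Total RNA of a frozen piece of heart tissue, whose place in the heart the methods do not give, was labelled with Cy3 and hybridised to 1 array per group, so differences could not be checked against replicates and no p-values are given. The series text speaks of repeated studies, and neither it nor the labels say how many animals stand behind an array.

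Heat shock proteins bind unfolded or partly folded proteins and help them to refold, assemble or be degraded. Under proteotoxic stress, heat shock factor 1 forms trimers that bind heat shock elements, which are inverted repeats of short GAA units upstream of the inducible chaperone genes. *Hspa1a* and *Hspa1b* are the classic stress-inducible Hsp70 genes, whereas *Hspa8*, *Hsp90ab1* and, in heart muscle, *Hspb1* and *Bag3* are made in quantity without stress.

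The sequences upstream of 4 of the genes are shown because their probes had the largest differences from NS among the 10 genes, *Hspa1a* and *Hspa1b* upward and *Hsph1* and *Hspe1* downward. Each line gives the 250 bases before the transcription start in the RefSeq annotation of mouse assembly GRCm38.p6, 5′ to 3′ along the gene, and capitals mark the letters GAANNTTC or TTCNNGAA, which are 2 adjoining units of a heat shock element (each motif reads as itself on the other strand). The *Hspa1a* window is chr17:34972157-34972406 on the minus strand, and that of *Hspa1b* is chr17:34959239-34959488 on the minus strand. The *Hsph1* window is chr5:149636337-149636586 on the minus strand, the first of 2 annotated starts, and that of *Hspe1* is chr1:55087898-55088147 on the plus strand.
Hspa1a: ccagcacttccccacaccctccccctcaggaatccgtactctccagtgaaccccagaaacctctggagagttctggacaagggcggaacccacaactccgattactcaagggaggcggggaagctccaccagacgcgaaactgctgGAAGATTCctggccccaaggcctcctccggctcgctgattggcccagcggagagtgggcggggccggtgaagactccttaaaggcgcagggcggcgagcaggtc
Hspa1b: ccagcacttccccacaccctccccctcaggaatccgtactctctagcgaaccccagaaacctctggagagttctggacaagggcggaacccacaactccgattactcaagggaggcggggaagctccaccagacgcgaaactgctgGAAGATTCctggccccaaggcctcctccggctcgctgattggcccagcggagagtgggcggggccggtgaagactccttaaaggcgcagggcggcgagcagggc
Hsph1: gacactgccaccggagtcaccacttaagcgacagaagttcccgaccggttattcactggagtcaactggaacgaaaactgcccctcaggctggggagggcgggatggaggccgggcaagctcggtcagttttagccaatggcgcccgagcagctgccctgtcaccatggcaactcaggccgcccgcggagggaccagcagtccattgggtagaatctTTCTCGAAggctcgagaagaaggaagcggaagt
Hspe1: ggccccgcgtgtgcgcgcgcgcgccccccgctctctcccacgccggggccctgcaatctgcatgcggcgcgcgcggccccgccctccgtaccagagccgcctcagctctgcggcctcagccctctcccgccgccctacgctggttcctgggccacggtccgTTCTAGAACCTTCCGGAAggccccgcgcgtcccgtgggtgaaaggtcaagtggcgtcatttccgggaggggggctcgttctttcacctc

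*Hspa1a* and *Hspa1b* are neighbouring genes, and their upstream windows were alike at 247 of 250 bases, with the same single match 104 to 97 bases before the start. *Hsph1* had 1 match 33 to 26 bases before its start. *Hspe1* had 3 overlapping matches 89 to 72 bases before its start, and these held 2 overlapping matches of 3 adjoining units (GAA, TTC and GAA, or TTC, GAA and TTC, each 2 bases apart). A window was held for 7 of the 10 genes. Of these 7, 5 had a match of 2 units (*Hspb1*, with 2 matches, was the fifth) and only *Hspe1* had 3 units within the 250 bases, while *Dnajb1* and *Bag3* had neither. In the full table entries, which run past the start, *Hsph1* had 1 match of 3 units as well. Over all 32851 windows of the same length, 12.8% held 2 units and 0.466% held 3 units. The log2 ratios of CY to NS of the 5 genes with a match ranged from -0.87 for *Hsph1*, through 0.02 for *Hspb1*, to 1.77 for *Hspa1a*. The CCAAT box, CCAAT or ATTGG, was found upstream of *Hspa1a*, *Hspa1b*, *Hsph1* and *Dnajb1* and in 33.8% of all windows, and TATAAA or TTTATA, found in 12.4% of all windows, in none of the 7 genes. A match is only a run of letters and does not show that a factor binds there. Only exact letters were searched, so a gene without a match, such as *Dnajb1* or *Bag3*, was not shown to lack a heat shock element.

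Signals below are quantile-normalised intensities in arbitrary fluorescence units, and they are compared between arrays for 1 probe and never between probes. The summed signals of cell type markers are the exception, since they add several probes and the brightest of these weigh most. A gene is represented by its brightest P-flagged probe. The spot error, which the scanner software estimated at about 10% of the signal of a bright probe, covers the spot alone and not the mice. For a log2 ratio of 2 arrays it came to between 0.20 and 0.24 for the 10 genes. A gene was called higher when its Z-score reached 2 and its ratio 1.5, and called lower when its Z-score was -2 or below and its ratio did not exceed 0.66, which are the study's criteria. The Z-score sets the log2 ratio against the mean and SD of the 200 probes nearest in signal. The median of these SDs was 0.576 log2 units for CY against NS, 0.216 for acrolein against NS and 0.536 for NAC + CY against NS, so a given ratio yields a higher Z-score on the acrolein array. All 8 cardiomyocyte markers examined carried a P flag on all 4 arrays.

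The stress-inducible Hsp70 genes *Hspa1a* and *Hspa1b* were the only heat shock genes called in CY. The *Hspa1a* probe (mm9 chr17:35106766-35106825) had signals of 606 in CY, 171 in acrolein, 468 in NAC + CY and 178 in NS. Thus CY and NAC + CY stood far above NS, and the acrolein and NS signals differed by less than the spot error. The log2 ratio of *Hspa1a* to NS was 1.77 in CY (3.41-fold, Z-score 3.28), -0.05 in acrolein (Z-score -0.33) and 1.40 in NAC + CY (2.63-fold, Z-score 2.18). It was called higher in CY and in NAC + CY. The *Hspa1b* probe (mm9 chr17:35093374-35093405 in the array files) had signals of 151 in CY, 49.3 in acrolein, 89.8 in NAC + CY and 53.5 in NS. The arrays took the same order as for *Hspa1a*, with NAC + CY closer to NS. The log2 ratio of *Hspa1b* to NS was 1.49 in CY (2.82-fold, Z-score 2.34), -0.12 in acrolein (Z-score -0.42) and 0.75 in NAC + CY (1.68-fold, Z-score 1.1), and it was called in CY alone. With the normexp background correction its log2 ratio in CY was 0.86, and it was still called. At a Z-score of 3 *Hspa1a* stayed called in CY, and neither *Hspa1b* in CY nor *Hspa1a* in NAC + CY did. The proteins of these 2 genes are nearly identical, and the transcripts may cross-hybridise. The 60-base probes themselves shared no run longer than 5 bases and matched at no more than 21 bases in any ungapped alignment. Neither probe was compared with the transcript of the other gene, so this does not show that each probe reads only its own gene.

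In CY, 2 of the 10 heat shock genes were called higher and none lower, against 3.38% of 19712 genes measured called higher and 2.82% called lower. In acrolein, none of the 10 was called in either direction, against 1.08% of 19699 genes called higher and 1.3% lower. In NAC + CY, 1 of the 10 was called higher and none lower, against 2.68% of 19799 genes called higher and 2.6% lower. By the ratio alone, 2 genes passed upward and 2 downward in CY, where 11.7% and 10.7% of all genes did so, and none passed in acrolein, where 3.98% passed upward and 2.87% downward. By the ratio alone, 2 passed upward and 1 downward in NAC + CY, where 9.63% and 9.69% of all genes did so. The median log2 ratio of the 10 genes to NS was 0.08 in CY, 0.07 in acrolein and 0.08 in NAC + CY, whereas that of all genes was -0.02 in CY, 0.01 in acrolein and -0.01 in NAC + CY. All called differences from NS were those of *Hspa1a* and *Hspa1b*. The 3 comparisons share the single NS array, and an unusual NS signal of a probe would enter all of them alike.

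**Figure D1:**
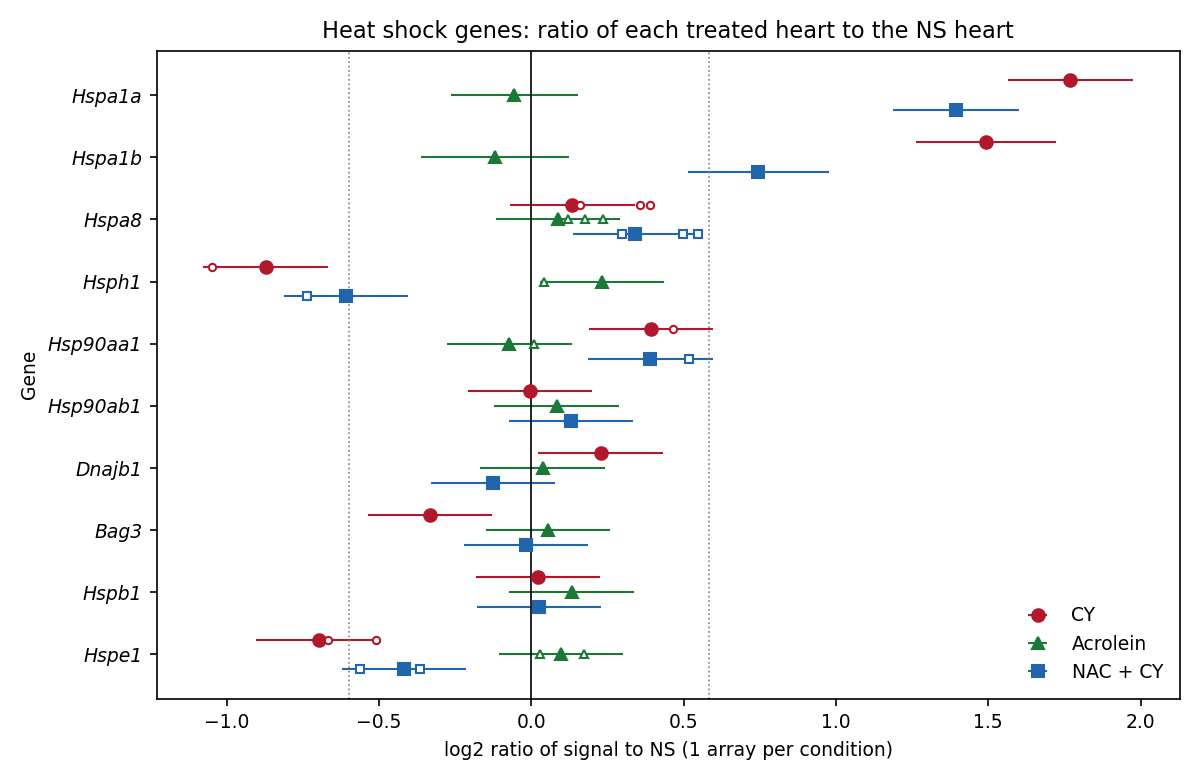
Log2 ratio of signal to NS (x axis) of the 10 heat shock genes (y axis) in CY (red circles), acrolein (green triangles) and NAC + CY (blue squares), 1 array each. Filled symbols are the representative probe with the spot error of the ratio as a bar, open symbols the other P-flagged probes, and dotted lines the ratios 1.5 and 0.66. *Hspa1a* (1.77) and *Hspa1b* (1.49) lie to the right in CY, *Hsph1* (-0.87) and *Hspe1* (-0.70) to the left, and all acrolein values lie between -0.12 and 0.24.

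The other Hsp70 of the set, *Hspa8*, encodes the constitutive Hsc70, which folds new proteins, uncoats clathrin vesicles and drives chaperone-mediated autophagy. Its brightest probe had signals of 31238 in CY, 30249 in acrolein, 36032 in NAC + CY and 28442 in NS. The NAC + CY signal was the highest and the NS signal the lowest, and the other 3 *Hspa8* probes had the same highest and lowest array. The log2 ratio to NS ranged over the 4 probes between 0.14 and 0.39 in CY, between 0.09 and 0.24 in acrolein and between 0.30 and 0.55 in NAC + CY. No *Hspa8* probe was called.

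*Hsph1* encodes Hsp110, a relative of Hsp70 that acts as its nucleotide exchange factor and, in animal cells, helps to dissolve protein aggregates. Its brightest probe (mm9 chr5:150419744-150419803) had signals of 943 in CY, 2029 in acrolein, 1133 in NAC + CY and 1726 in NS. The second probe had 263 in CY, 559.9 in acrolein, 327 in NAC + CY and 544 in NS. On both probes CY was the lowest array and NAC + CY the next, below NS. The log2 ratio of *Hsph1* to NS was -0.87 in CY on the brightest probe (0.546-fold, Z-score -1.76) and -1.05 on the second (0.484-fold, Z-score -1.86). Both missed the Z-score criterion, although both were past the ratio of 0.66. With Z-scores taken over 100 probes, the brightest probe was called lower in CY (Z-score -2.16). In NAC + CY the log2 ratios were -0.61 and -0.74, and in acrolein 0.23 and 0.04. The value in acrolein was above NS by slightly more than the spot error on the brightest probe and by less than it on the second. *Hspa1a* and its partner *Hsph1* therefore had log2 ratios of opposite sign in CY.

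**Figure D2:**
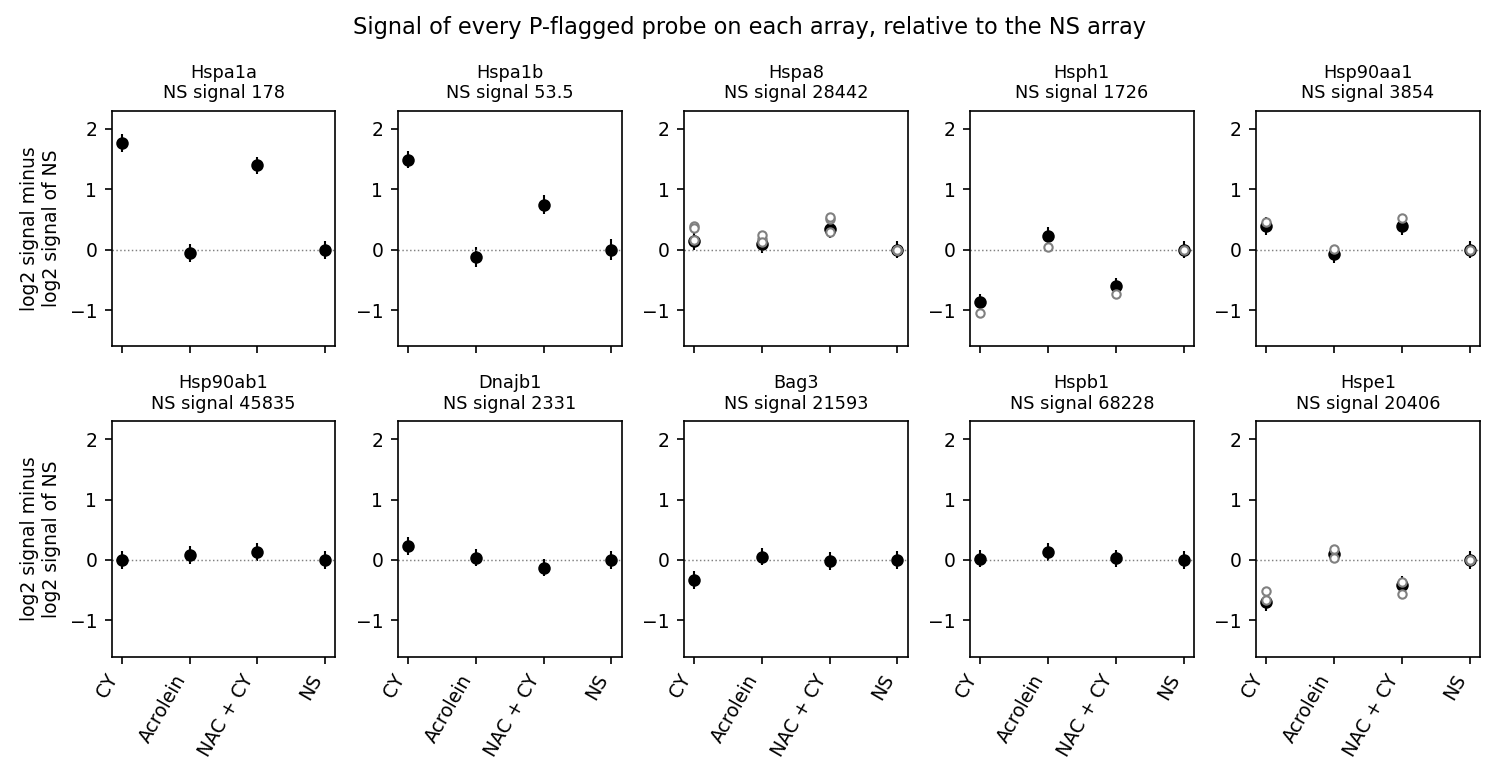
Log2 signal of each P-flagged probe minus its log2 signal on the NS array (y axis) in CY, acrolein, NAC + CY and NS (x axis), 1 panel per gene with the NS signal of the representative probe above it. Filled points are the representative probe with the spot error of each array as a bar, and open points are the other probes. *Hspa1a* and *Hspa1b* are high in CY and NAC + CY, and *Hsph1* and *Hspe1* are low in both, on every P-flagged probe.

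The Hsp90 genes encode the abundant cytosolic chaperone of kinases and steroid receptors, *Hsp90aa1* its more stress-responsive form and *Hsp90ab1* its constitutive form. *Hsp90aa1* had signals of 5059 in CY, 3668 in acrolein, 5055 in NAC + CY and 3854 in NS. CY and NAC + CY were alike and lay above acrolein and NS. The log2 ratio of *Hsp90aa1* to NS was 0.39 in CY (1.31-fold, Z-score 1.07), -0.07 in acrolein and 0.39 in NAC + CY, and its second P-flagged probe gave 0.47 in CY, 0.01 in acrolein and 0.52 in NAC + CY. These differences exceeded the spot error in CY and NAC + CY, and none was called. *Hsp90ab1* had signals of 45702 in CY, 48565 in acrolein, 50179.8 in NAC + CY and 45835 in NS, which all lay within the spot error of each other.

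Neither co-chaperone was called in any comparison. *Dnajb1* encodes Hsp40, a J-domain protein that hands clients to Hsp70 and stimulates its ATPase. Its signals were 2729.9 in CY, 2392 in acrolein, 2137 in NAC + CY and 2331 in NS. CY was the highest array and NAC + CY the lowest, with log2 ratios to NS of 0.23 in CY, 0.04 in acrolein and -0.13 in NAC + CY. *Bag3* encodes a nucleotide exchange factor that couples Hsp70 and small heat shock proteins to selective autophagy at the Z-disc of muscle. Its signals were 17154 in CY, 22437 in acrolein, 21332 in NAC + CY and 21593 in NS. CY was the only array apart from the others, with a log2 ratio to NS of -0.33 (0.794-fold, Z-score -0.42).

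*Hspb1* encodes Hsp27 (Hsp25 in mice), a small heat shock protein that holds unfolded proteins and stabilises actin. Its signals of 69263 in CY, 74807 in acrolein, 69484 in NAC + CY and 68228 in NS lay within the spot error of each other. *Hspe1* encodes Hsp10, the co-chaperonin that closes the Hsp60 folding chamber in the mitochondrial matrix. Its brightest probe (mm9 chr1:55148026-55148085) had signals of 12579.6 in CY, 21837 in acrolein, 15279 in NAC + CY and 20406 in NS. CY was the lowest array, followed by NAC + CY, and acrolein and NS differed by less than the spot error. The log2 ratio to NS was -0.70 in CY (0.617-fold, Z-score -1.54), 0.10 in acrolein and -0.42 in NAC + CY. All 3 *Hspe1* probes were below NS, by log2 ratios between -0.70 and -0.51 in CY and between -0.56 and -0.37 in NAC + CY, and none was called. *Hspd1*, which encodes Hsp60 and shares the upstream region with *Hspe1*, had signals of 17326 in CY, 25629 in acrolein, 19663 in NAC + CY and 25334 in NS. Its log2 ratios to NS of -0.55 in CY, 0.02 in acrolein and -0.37 in NAC + CY had the order of those of *Hspe1* over the arrays, and it was set beside *Hspe1* after its values were seen.

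**Figure D3:**
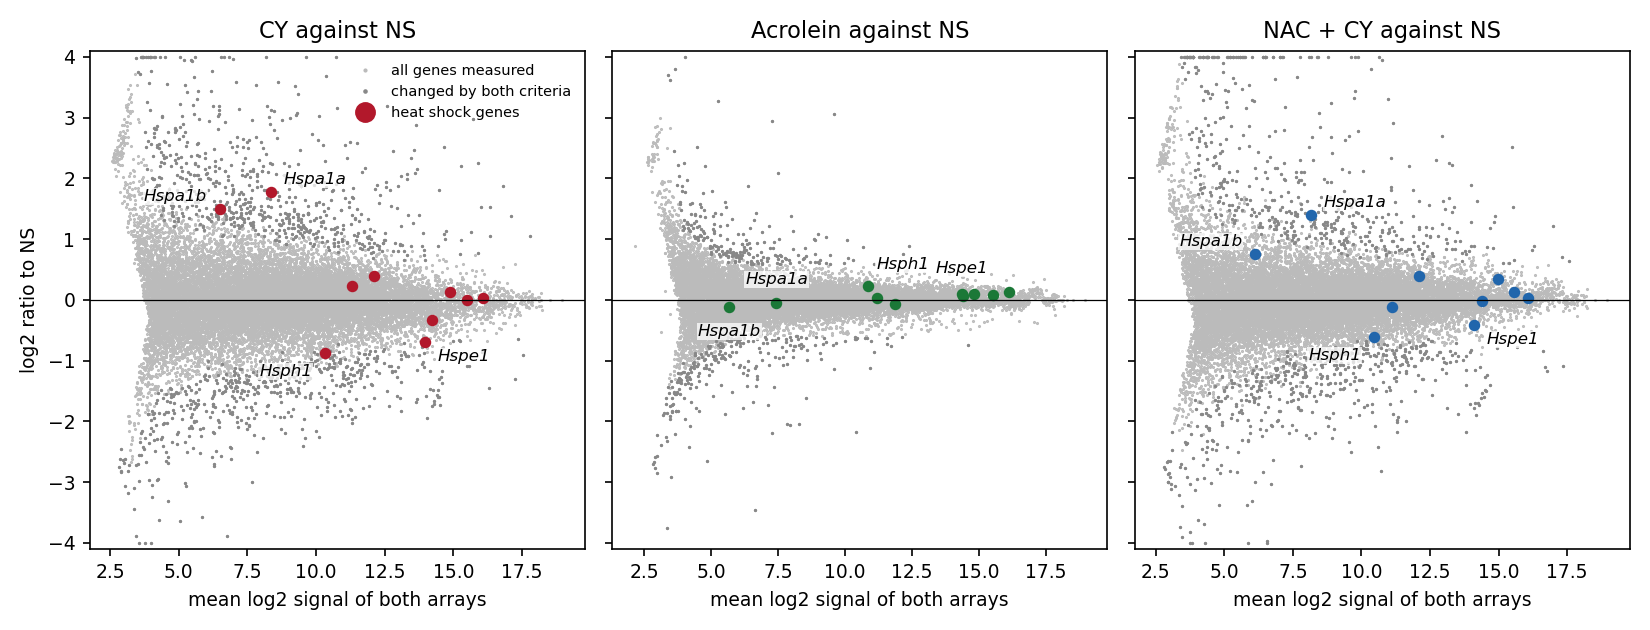
Log2 ratio to NS (y axis) against the mean log2 signal of both arrays (x axis) for all genes measured in CY, acrolein and NAC + CY, with the heat shock genes in colour and genes changed by both criteria in dark grey. Genes beyond 4 log2 units are drawn at the edge. The spread is narrower in acrolein (median SD 0.216) than in CY (0.576), and *Hspa1a* and *Hspa1b* lie among the changed genes in CY.

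The comparison of NAC + CY with CY asked whether NAC given before CY altered the response. None of the 10 genes was called, against 1.54% of 20072 genes called higher in NAC + CY and 2.82% called lower. By the ratio alone, 1 of the 10 passed, *Hspa1b* downward, where 5.82% of all genes passed upward and 7.88% downward. *Hspa1b*, with 89.8 in NAC + CY and 151 in CY, had a log2 ratio of -0.75 (0.596-fold, Z-score -1.41). *Hspa1a*, with 468 in NAC + CY and 606 in CY, had a log2 ratio of -0.37 (0.771-fold, Z-score -1.39), and *Dnajb1* had -0.35. All 3 differences exceeded the spot error. Between the same arrays, 6 of 6 platelet markers were called lower in NAC + CY (median log2 ratio -4.03), as were 5 of 6 mesothelium (-2.13), 4 of 5 atrial (-0.97) and 3 of 5 fibroblast markers (-0.89), while 5 of 5 measured hepatocyte (3.00), 4 of 4 fat cell (1.11) and 4 of 5 neutrophil markers (1.69) were called higher. Also called lower were 2 of 5 vascular mural, 1 of 1 measured erythroid and 1 of 2 measured T and B lymphocyte markers. Of the 6 platelet markers, 6 carried a P flag in CY and 3 in NAC + CY. For the hepatocyte markers the counts were 2 in CY and 5 in NAC + CY. A marker without a P flag on 1 array can still be called, and the size of its ratio is then uncertain. The part of these markers in the differences was not tested. *Hsph1* had a log2 ratio of 0.26, *Hspe1* 0.28 and *Bag3* 0.31 between NAC + CY and CY, so that for these genes NAC + CY lay between CY and NS or, for *Bag3*, next to NS. *Hsp90aa1* differed by less than the spot error, at 0.999-fold. The median log2 ratio of the 10 genes was 0.07, and that of all genes was 0.02.

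The genes around the set were read from 11 lists of chaperones, their partners and stress genes, 109 genes in all, and all of them were measured. In CY, 2.75% of the 109 were called higher and 4.59% lower, in acrolein 1.83% higher and 0 lower, and in NAC + CY 4.59% higher and 6.42% lower. In NAC + CY against CY, 1 gene was called higher and 1 lower. The counts of the lists are small, and they are given as a description beside the shares of all genes above.

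None of the 4 genes on the heat shock factor list (*Hsf1*, *Hsf2*, *Hsf4* and the binding protein *Hsbp1*) was called in any comparison. *Hsf1*, which encodes the main stress-activated factor and is controlled chiefly at the protein level, had log2 ratios to NS of -0.06 in CY, 0.14 in acrolein and 0.25 in NAC + CY, and is named although another gene of its list moved more. That gene, *Hsf4*, had weak signals of 44.2 in CY, 32.6 in acrolein, 68.8 in NAC + CY and 27.7 in NS and was not called. Of 8 other Hsp70 and Hsp110 genes, *Hspa2*, known for its role in spermatogenesis, had signals of 688 in CY, 249 in acrolein, 445 in NAC + CY and 285 in NS. It was called higher in CY (log2 ratio 1.27, Z-score 2.56), and it was called lower in NAC + CY than in CY (-0.63). *Hspa12a*, a distant relative of Hsp70, was called lower in CY (log2 ratio -0.99) and in NAC + CY (-0.72). *Hspa12b*, a related gene of endothelial cells, was called lower in NAC + CY (-0.98), and its log2 ratio in CY was -0.80 (Z-score -1.42).

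Among 12 Hsp90 co-chaperones, a pair of immunophilins lay on opposite sides of NS. *Fkbp5*, which encodes FKBP51 and is a well-known target of glucocorticoid receptor, had signals of 3796 in CY, 821 in acrolein, 2774 in NAC + CY and 1082 in NS, and was called higher in CY (log2 ratio 1.81, Z-score 3.68) and in NAC + CY (1.36, Z-score 2.95). *Fkbp4*, which encodes FKBP52, had 8869 in CY, 20207 in acrolein, 10325 in NAC + CY and 19656 in NS, and was called lower in CY (log2 ratio -1.15, Z-score -2.47) and in NAC + CY (-0.93, Z-score -2.55). Both proteins occupy the same site on Hsp90. Of 8 Hsp70 exchange factors and co-chaperones, *Bag2* alone was called, higher in NAC + CY (log2 ratio 0.76, Z-score 2.15). Its log2 ratio in CY was 0.65 (Z-score 1.66). The 15 other J-domain genes, the 6 other small heat shock proteins, the 10 mitochondrial chaperones and proteases, the 14 genes of the CCT chaperonin and prefoldin and the 7 genes of polyubiquitin and selective autophagy had no called gene in any comparison. The largest differences among them in CY were *Sqstm1*, the autophagy receptor p62, with a log2 ratio of 0.74 (Z-score 1.95), *Hspb6* with -0.66 and *Dnaja1* with 0.58. For the mitochondrial list the largest was *Hspd1* (-0.55), and for CCT and prefoldin *Pfdn6* (-0.35). All 7 polyubiquitin and autophagy genes lay above NS on each treated array. Their median log2 ratio was 0.30 in CY, 0.12 in acrolein and 0.47 in NAC + CY, where 48.3%, 51.9% and 48.9% of all genes were above 0. In acrolein all 7 ratios lay between 0.04 and 0.18, below the smallest spot error of a ratio among the heat shock genes (0.20). The lowest of the 7 was below it in CY (0.11) and in NAC + CY (0.18) as well. All these ratios share the single NS array.

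The 14 endoplasmic reticulum chaperones had a median log2 ratio to NS of -0.36 in CY, 0.25 in acrolein and -0.33 in NAC + CY. In CY 3 were called lower, namely *Sdf2l1* (log2 ratio -1.19), *Pdia6* (-0.90) and *Hsp90b1*, the Hsp90 of the endoplasmic reticulum (-0.88), and none higher. In NAC + CY 4 were called lower, among them *Sdf2l1* (-1.46), *Pdia6* (-1.20) and *Hsp90b1* (-0.85). In acrolein none was called, and the log2 ratios of all 14 were above 0, between 0.03 and 0.50, where 51.9% of all genes were above 0. Some passed the Z-score and missed only the ratio of 1.5, among them *Manf* (log2 ratio 0.50, Z-score 3.38) and *Hspa5* (0.33, Z-score 3.21). Others lay close to NS, among them *Dnajc3* (0.03, Z-score 0.07) and *Canx* (0.10, Z-score 0.72). *Hsp90b1* had signals of 11555 in CY, 26894 in acrolein, 11729 in NAC + CY and 21200.3 in NS, whereas the cytosolic *Hsp90ab1* stayed within the spot error on the same arrays.

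**Figure D4:**
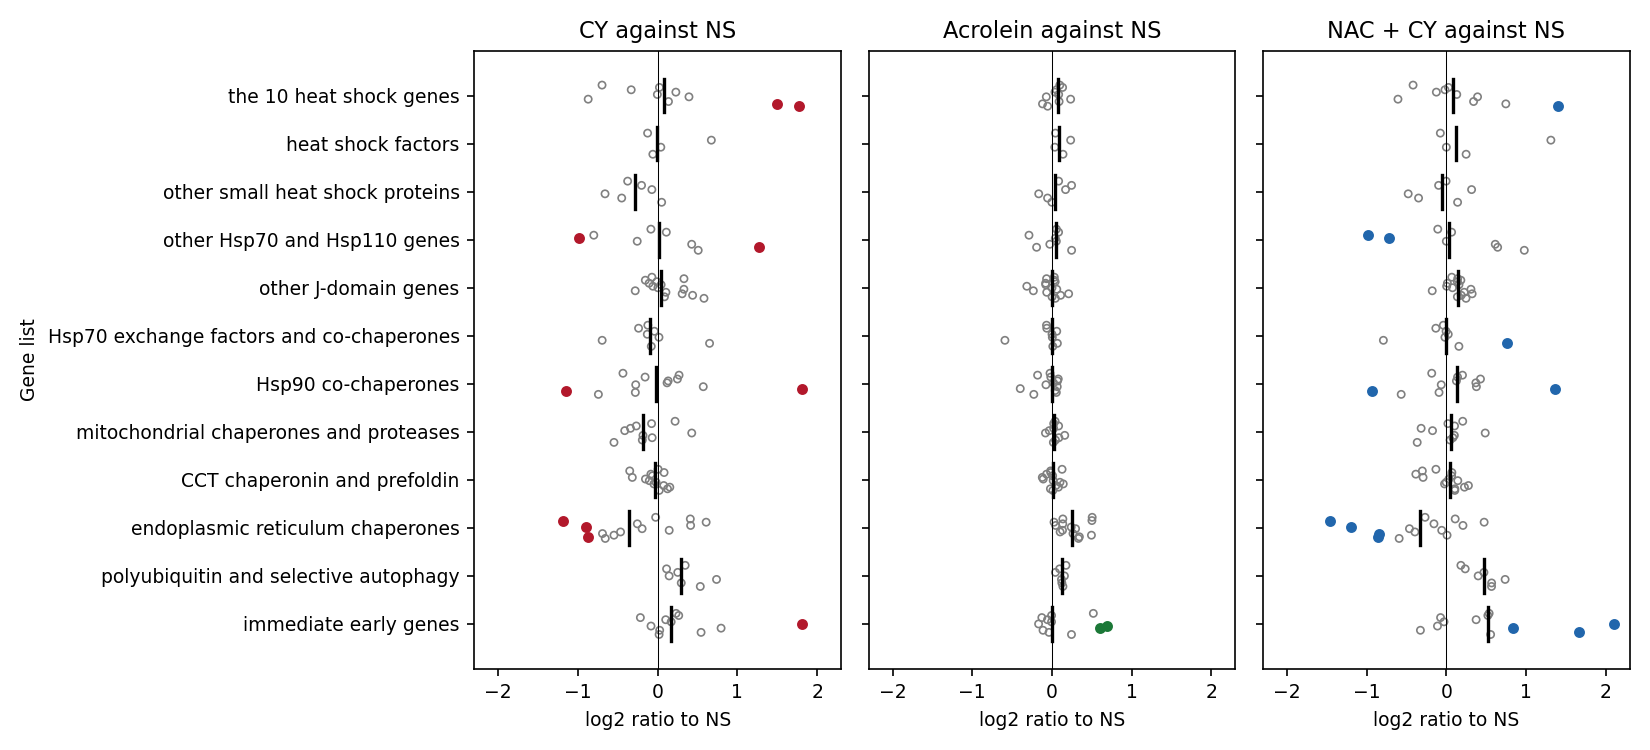
Log2 ratio to NS (x axis) of every gene of the 10 heat shock genes and of 11 related lists (y axis) in CY, acrolein and NAC + CY. Filled points are called genes, open points the others, and vertical bars the list medians, which for the endoplasmic reticulum chaperones are -0.36 in CY, 0.25 in acrolein and -0.33 in NAC + CY.

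Of 11 immediate early genes, *Atf3*, a stress-induced transcription factor, had signals of 379 in CY, 96.1 in acrolein, 466 in NAC + CY and 108 in NS. It was called higher in CY (log2 ratio 1.81) and in NAC + CY (2.11), while its list had no other called gene in CY. In NAC + CY *Fosb* (1.66) and *Junb* (0.83) were called as well, and in acrolein *Egr1* (0.70) and *Junb* (0.60). In CY *Junb* had a similar log2 ratio of 0.80 and missed only the Z-score criterion (Z-score 1.72). *Fosb* was also called higher in NAC + CY than in CY (1.12).

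The genes most like *Hspa1a* over its log2 ratios to NS on the 3 treated arrays were sought among 17847 genes with a P flag on all 4 arrays. The nearest by Euclidean distance were *Apod* (distance 0.113 log2 units), the unnamed transcript AK052921 (0.155), *C4b* (0.191), *Ccr8* (0.203) and *Gldc* (0.208). *Apod*, a secreted lipocalin, had log2 ratios to NS of 1.88 in CY, -0.06 in acrolein and 1.40 in NAC + CY. *Hspa1b* ranked 138th at a distance of 0.709, because its ratio in NAC + CY was lower, and *Hsph1* was far from it at rank 16899. Likeness over 3 ratios that share 1 control is a description only.

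Markers of other heart regions and cell types moved on the same arrays as *Hspa1a* and *Hspa1b*. In CY, 5 of 5 atrial muscle markers were called higher, with a summed signal of 796958 in CY and 304565 in NS, 5 of 6 mesothelium markers, with 5969 in CY and 2009 in NS, and 6 of 6 platelet markers, with 7608 in CY and 2866 in NS. In NAC + CY, 4 of 5 atrial markers were called higher, with a summed signal of 488066 in NAC + CY and 304565 in NS, 5 of 5 measured hepatocyte markers, with 7546 in NAC + CY and 1207 in NS, 4 of 4 fat cell markers, with 14174 in NAC + CY and 3936 in NS, and 5 of 5 neutrophil markers, with 4271 in NAC + CY and 542 in NS. In acrolein, where *Hspa1a* stayed near NS, 4 of 5 neutrophil markers were called higher and 5 of 6 mesothelium, 4 of 4 fat cell and 1 of 2 measured erythroid markers lower. Of 6 hepatocyte markers, 5 carried a P flag in NAC + CY and 2 in NS. Of 6 platelet markers, 6 carried it in CY and 5 in NS, and of 5 neutrophil markers 5 on each treated array and 3 in NS. For the fat cell markers the counts were 4 in NS and 3 in acrolein. For the lymphocyte markers they were 4 in NS, 2 in CY and 1 in NAC + CY, and for the erythroid markers 2 in NS and 1 on each treated array. Further markers were called. In CY 2 of 5 neutrophil, 1 of 4 fat cell and 1 of 2 measured hepatocyte markers were called higher. Also in CY, 1 of 5 endothelium, 1 of 5 vascular mural, 1 of 2 measured erythroid and 3 of 4 measured T and B lymphocyte markers were called lower, 1 vascular mural marker higher and no fibroblast marker either way. In NAC + CY 1 of 5 endothelium, 2 of 5 fibroblast, 2 of 5 vascular mural, 2 of 2 erythroid and 2 of 4 lymphocyte markers were called lower. The summed signal of 8 cardiomyocyte markers, of which 1 was called lower in CY and in NAC + CY, was 1673524 in CY, 1920907 in acrolein, 1739987 in NAC + CY and 1916416 in NS. With 1 piece of tissue per group, which piece was taken and the treatment cannot be told apart. In such bulk tissue, fewer cells of a type and less RNA per cell cannot be told apart either, and the part of these markers in the heat shock results was not tested.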

How the data were processed

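Heart RNA of 4 groups of mice was measured on 4 single-colour Agilent arrays of 1 slide, 1 array per group. The authors extracted the spots with Agilent Feature Extraction (version 9.5.1.1 in the submitters' notes, 10.7.1.1 in the file headers), and the deposited intensity of a spot is its fluorescence after background subtraction, not normalised between arrays. The authors' deposited value table, linear signals whose median was 13.9 on the NS array, correlated at 0.9996 or more with the scanner signals and served as an alternative. How its arrays were normalised is known only from the methods, which name the quantile algorithm.

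Log2 signals of 59305 spots were quantile-normalised over the 4 arrays, and repeated spots of a probe were averaged. No spot was saturated, and between 49.4% and 52.2% of spots per array were well above background. The SD between repeated spots was 0.0642 to 0.108 log2 units. The use of P flags, the criteria and the Z-score follow the authors' methods. The methods do not define a P flag, so its definition from the scanner's quality marks is a choice made here, as is the window of 200 probes. Probes were named through the RefSeq table of GRCm38.p6 by accession (32994), symbol (10224) or synonym (520), and 12867 kept their file name. All probes given to the 10 genes carried those names in the files.

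Each treated array was set against NS, and NAC + CY also against CY. The 10 genes, the lists and the tests were chosen with earlier results of these data known, and the lists were written from general knowledge. Named are all 10 genes and, in each list, up to 3 called genes by absolute log2 ratio. For a list without a called gene in any comparison, the gene with the largest difference in CY is named. Some further genes of the lists were named after their values were seen. The 5 genes nearest to the gene with the largest change in CY are named as well. Cell type markers were read from 12 lists. The procedure was tested on simulated data with 200 changed probes. The simulated spread was smaller than that of CY or NAC + CY against NS, so the test does not show how many changes were missed there. Alternatives covered normalisation, background correction, the value table, the P flag filter, the Z-score window and threshold, the ratio alone and the choice of probe. Python 3.11.15 (numpy 2.4.6, pandas 2.3.3, matplotlib 3.10.9) and limma 3.58.1 in R 4.3.3 (normexp, offset 50) were used.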

Additional observations from a re-analysis of the deposited data

Results flagged for a closer look

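*Hsph1* lay past the spot error on opposite sides of NS in different treatments. The log2 ratio of its brightest probe to NS was -0.87 in CY and -0.61 in NAC + CY but 0.23 in acrolein. The difference between the treatments was not tested, since there was 1 array per group, and on the second *Hsph1* probe the acrolein value was 0.04, less than the spot error.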

How the results depend on the processing

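Each of the 10 genes was recomputed in the 4 comparisons under 11 other settings, which gave 440 values. Of these, 432 kept their call, 6 gained a call and 2 lost it. Most of the 432 were values that had not been called and stayed so. Settings that altered only the P flag filter, the Z-score window or the criteria left the log2 ratio itself unchanged. Sign changed in 9 of the values, none of them called, whose log2 ratios lay within 0.14 of 0 in *Hspb1*, *Hsp90ab1*, *Hsp90aa1* and *Bag3*. *Hspa1a* had log2 ratios to NS between 1.47 and 1.77 in CY and between 1.14 and 1.40 in NAC + CY, and *Hspa1b* between 0.86 and 1.55 in CY and between 0.38 and 0.78 in NAC + CY. *Hsph1* lay between -0.96 and -0.83 in CY and *Hspe1* between -0.74 and -0.61. At a Z-score of 3, the number of heat shock genes called was 1 in CY, against 2, and 0 in NAC + CY, against 1. By the ratio alone it was 4 in CY, 3 in NAC + CY and 1, against 0, in NAC + CY compared with CY. Of the 109 genes of the related lists, 2 were called in CY at a Z-score of 3 and 19 by the ratio alone, against 8, and 2 in NAC + CY at a Z-score of 3, against 12. In acrolein 1 was called with the normexp correction, against 2. In NAC + CY compared with CY the count was 0 with normexp and at a Z-score of 3 and 1 with a window of 400 probes, against 2. With normexp, 47 genes of the whole array were called higher and 63 lower in acrolein, against 213 and 256.

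The main limit is 1 array per group: the spot error and the spread of the probes say nothing about differences between mice, and *Hspa1b*, with an NS signal of 53.5 and a spot error of 12.1% there, is the gene whose ratio moved most with the background correction. No paired analysis was possible because each group has 1 array and the labels give no replicate numbers.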
